A study of Homo sapiens with 8 samples.

Results

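The 10 genes described here encode MET and its relative MST1R, the receptors EGFR, ERBB2 and ERBB3, the EGF-family ligands HBEGF, AREG, EREG and TGFA, and the receptor inhibitor ERRFI1. They were taken by symbol from a table of 32066 genes counted in DU145, an epithelial line established from a prostate carcinoma's metastasis to the brain. The labels give 4 control libraries and 4 libraries of DU145 cells with exogenous SOX11, all grown in DMEM with serum. SOX11 is a transcription factor of the developing nervous system, and the series asks which transcripts change when it is expressed in this line. The labels do not say what the control cells carried, whether the SOX11 cells were 1 clone or a pool, or whether the replicates were separate cultures. The p-values therefore judge the group difference only against the spread between these libraries, which may be technical.

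Receptor tyrosine kinases of the ERBB and MET families sit in the cell membrane and bind secreted or shed growth factors. Ligand binding pairs the receptors and activates their kinase domains, which signal through adaptor proteins to the RAS-ERK and PI3K-AKT cascades. HBEGF, AREG, EREG and TGFA are made as membrane-anchored precursors, are cut free by ADAM proteases and activate EGFR, while MET answers to hepatocyte growth factor. In carcinoma cells these receptors are known for their part in growth, scattering and invasion.

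Total counts were 14641250 to 18706095 in the control and 15309037 to 16740516 in the SOX11 libraries. SOX11 itself had 0 counts in each control library and 303 to 317 in the SOX11 libraries. Epithelial keratin genes were abundant in both groups and lower in SOX11 libraries, in CPM, which is counts scaled to a common library size. KRT8 fell from 840 to 590 CPM (log2 fold change -0.51, edgeR adjusted p = 0.000254), KRT18 from 543 to 404 CPM (-0.42) and KRT19 from 195 to 121 CPM (-0.68). EPCAM (44.6 and 47.7 CPM) and CDH1 (42.1 and 38.8 CPM) were not called. The summed level of the epithelial marker list was 1497 to 1762 CPM in control and 1200 to 1215 CPM in SOX11 libraries, and its part in the results was not tested. Of 12 markers of blood, endothelium and fibroblasts, 10 could be read and 1 was tested, COL1A1, which rose from 3.61 to 6.02 CPM. The fibroblast collagen genes COL1A2, with 3 counts over the control and 19 over the SOX11 libraries, and COL3A1, with 18 and 6, were too low to be tested. The part of these collagen genes in the results was likewise not tested. The summed level of the markers other than COL1A1 was 1.65 to 2.08 CPM in control and 1.28 to 1.95 CPM in SOX11 libraries. SOX11 replicate 1 stood apart in another way. It had 95 counts of KLK3, 161 of KLK2, 107 of FOLH1 and 24 of TMPRSS2, which had 0 to 4 counts in each other library. In that library 47 genes had at least 10 counts while every other library had at most 15% of that number, and the other 7 libraries had 0 such genes. These 47 genes held 0.0125% of its counts. The part of this library in the results below was measured by leaving it out.

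Of the 10 genes, 5 were called at an adjusted p below 0.05, against 20.0% of all 15665 tested genes. The 10 genes were chosen with earlier results of these data known, so the shares given here are not a test of the set. HBEGF and ERRFI1 were higher in SOX11 libraries (10.3% of tested genes were called higher), and MET, TGFA and MST1R were lower (9.67% were called lower). In 6 of the 10 genes the groups did not overlap, against 21.1% of tested genes. The median log2 fold change was -0.010 over the 10 genes and 0.0011 over all tested genes, while the median size was 0.125 and 0.106. All 10 genes passed the filter on low counts, with 277 or more counts in each library. The shares over all tested genes also include genes with far fewer counts. Without SOX11 replicate 1 the same 5 genes were called, with log2 fold changes of -0.45 for MET, -0.48 for TGFA, -0.34 for MST1R, 0.70 for HBEGF and 0.14 for ERRFI1, and EREG was called as well (0.14, edgeR adjusted p = 0.0254). In bulk RNA, fewer cells that express a gene and less RNA per cell cannot be told apart.

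**Figure D1:**
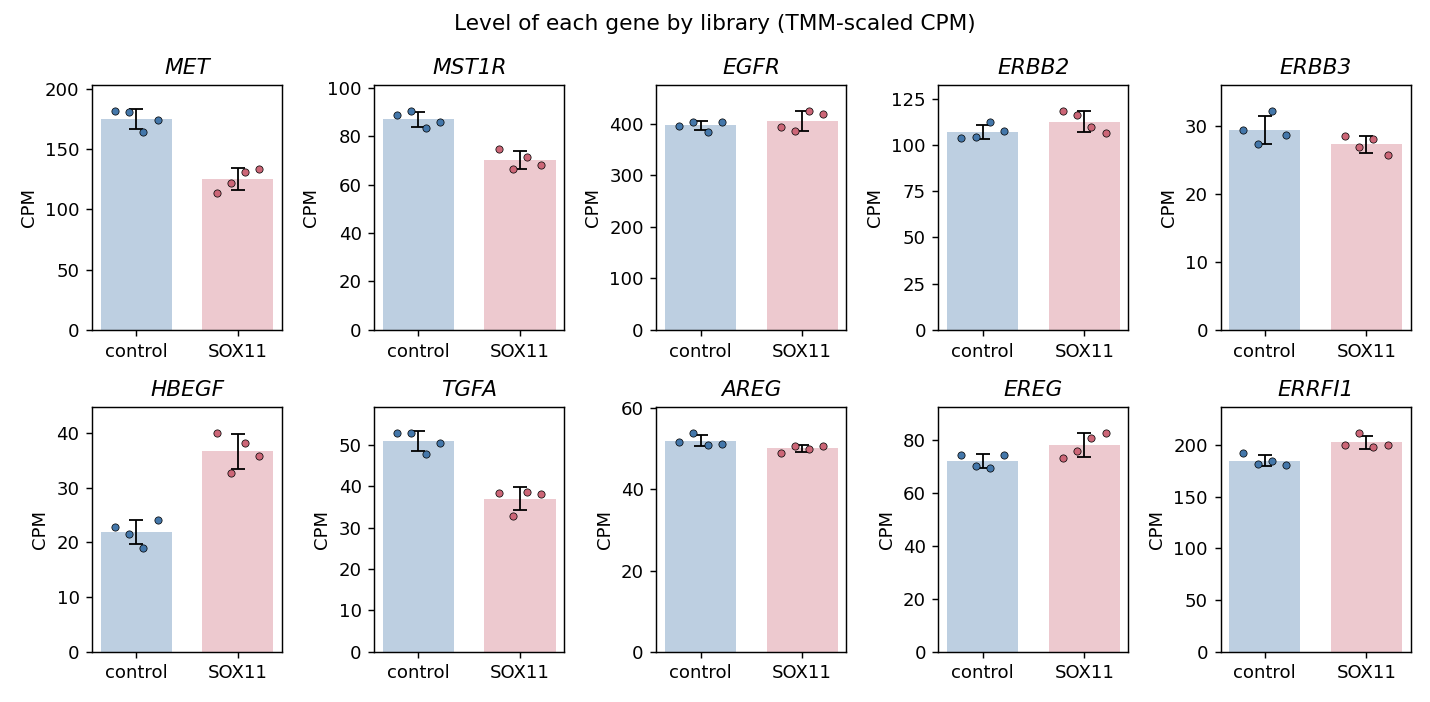
Level of each of the 10 genes in CPM scaled by TMM factors (y axis, from 0) in control and SOX11 libraries; bars are means, lines are SDs over 4 libraries and points are single libraries in replicate order. MET, MST1R and TGFA lie lower and HBEGF and ERRFI1 higher in the SOX11 libraries without overlap, while EGFR, ERBB2, ERBB3 and EREG overlap.

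The windows around the RefSeq starts of the 5 called genes are shown because these are the genes whose transcript level changed. Each runs from 250 bases before to 50 bases after the start (RefSeq table, GRCh38.p14), 5′ to 3′ on the gene's strand. Capitals mark matches on either strand to the GC box GGGCGG, which SP1 binds, or to a SOX core, searched as ACAAAG and ACAATG.
MET (chr7:116671946-116672245, plus strand): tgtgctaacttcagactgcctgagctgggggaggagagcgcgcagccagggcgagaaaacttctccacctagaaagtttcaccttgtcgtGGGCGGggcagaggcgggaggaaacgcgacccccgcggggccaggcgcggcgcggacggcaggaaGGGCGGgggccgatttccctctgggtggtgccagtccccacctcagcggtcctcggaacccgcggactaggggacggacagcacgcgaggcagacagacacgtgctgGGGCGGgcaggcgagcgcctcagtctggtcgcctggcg
MST1R (chr3:49903824-49904123, minus strand): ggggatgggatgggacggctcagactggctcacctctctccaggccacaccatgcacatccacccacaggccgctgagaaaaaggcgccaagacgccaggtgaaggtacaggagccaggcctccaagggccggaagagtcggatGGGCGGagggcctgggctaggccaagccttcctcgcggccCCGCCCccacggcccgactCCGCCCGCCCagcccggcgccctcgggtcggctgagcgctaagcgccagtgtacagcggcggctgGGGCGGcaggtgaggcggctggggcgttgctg
HBEGF (chr5:140346554-140346853, minus strand): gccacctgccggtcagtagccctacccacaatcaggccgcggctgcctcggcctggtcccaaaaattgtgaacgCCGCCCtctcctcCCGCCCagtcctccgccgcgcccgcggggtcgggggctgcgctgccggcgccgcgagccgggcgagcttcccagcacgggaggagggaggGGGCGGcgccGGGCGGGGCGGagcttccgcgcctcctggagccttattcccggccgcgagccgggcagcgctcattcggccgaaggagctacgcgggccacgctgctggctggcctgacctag
TGFA (chr2:70553397-70553696, minus strand): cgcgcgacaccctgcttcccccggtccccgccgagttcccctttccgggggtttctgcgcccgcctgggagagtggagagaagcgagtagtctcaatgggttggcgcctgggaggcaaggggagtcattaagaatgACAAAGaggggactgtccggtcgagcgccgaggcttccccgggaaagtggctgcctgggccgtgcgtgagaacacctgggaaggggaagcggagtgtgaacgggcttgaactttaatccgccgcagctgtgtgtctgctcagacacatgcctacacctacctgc
ERRFI1 (chr1:8026260-8026559, minus strand): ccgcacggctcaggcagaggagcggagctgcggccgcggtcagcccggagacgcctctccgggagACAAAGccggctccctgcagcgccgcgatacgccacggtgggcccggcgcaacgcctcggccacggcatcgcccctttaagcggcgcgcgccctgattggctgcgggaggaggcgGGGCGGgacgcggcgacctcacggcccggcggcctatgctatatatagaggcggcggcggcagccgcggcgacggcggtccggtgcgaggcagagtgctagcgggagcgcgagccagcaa
The 3 windows of MET, MST1R and HBEGF held GC boxes (3 in MET, 5 in MST1R and 5 in HBEGF) and no SOX core. TGFA had 1 SOX core 114 bases before its RefSeq start and no GC box. The TGFA window lies wholly inside the annotated gene (70447280 to 70554193), so this core is not upstream of the annotated start. The MET window ends at 116672245, before the annotated start of the gene at 116672390, so it lies wholly upstream of that start. ERRFI1 had 1 SOX core 185 bases before the start and 1 GC box. A pair of the GC boxes of MST1R and a pair of those of HBEGF share bases with each other. Over all 35116 windows of the table, 45% held a GC box and 24.5% a SOX core. The table held windows for 9 of the 10 genes, of which 5 had a GC box and 2 a SOX core. The 9 include a window for EGFR with neither, which lies at 55109589 to 55109888, inside the gene and far from its annotated start. Matches to the AP-1 site TGANTCA (7.71% of windows) and to TATAAA (11.5%) were found in 0 of the 5 windows shown. Of all 9 windows, 2 held the AP-1 site (EGFR and ERBB2) and 3 held TATAAA (EGFR, AREG and EREG). The GC content of the windows was 69.3% for MET, 71.3% for MST1R, 75% for HBEGF, 63.0% for TGFA and 74.7% for ERRFI1. A match describes letters in these windows and is not a measured binding site.

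Both receptors of the MET family fell. MET (ENSG00000105976, chromosome 7, 116672390 to 116798386, plus strand, GRCh38) is the receptor for hepatocyte growth factor. It stood at 181.5, 181.0, 163.9 and 174.1 CPM in control replicates 1 to 4 and at 113.4, 121.7, 131.0 and 133.8 CPM in SOX11 replicates 1 to 4. The highest SOX11 library lay well under the lowest control library, and SOX11 replicate 1 was the lowest of its group. The mean fell from 175 ± 8.18 to 125 ± 9.28 CPM (SD, n = 4), which is 1.40-fold lower (log2 fold change -0.49 ± 0.044 SE, edgeR adjusted p = 1.59e-08). Among all tested genes MET had rank 284 by size of decrease.

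MST1R (ENSG00000164078, chromosome 3, 49887002 to 49903873, minus strand) encodes RON, the receptor for macrophage-stimulating protein. Its level was 88.7, 90.3, 83.3 and 85.9 CPM in the control libraries and 74.9, 66.7, 71.3 and 68.1 CPM in the SOX11 libraries. The groups did not overlap, although SOX11 replicate 1 came closest to the controls. The mean fell from 87.0 ± 3.10 to 70.2 ± 3.66 CPM, which is 1.24-fold lower (log2 fold change -0.31 ± 0.043 SE, edgeR adjusted p = 2.25e-06). MST1, the gene of its ligand, was near 2 CPM in both groups (2.07 and 1.87 CPM, adjusted p = 0.702), and it overlaps the genes APEH and RNF123 on the opposite strand. HGF, the gene of the MET ligand, was looked up but was not among the genes counted.

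The ERBB receptors were not called. EGFR (ENSG00000146648, chromosome 7, 55019021 to 55211628, plus strand), the receptor of all 4 ligands described here, stood at 397 ± 9.41 CPM in control and 406 ± 19.0 CPM in SOX11 libraries. The control libraries ran from 384.1 to 404.5 and the SOX11 libraries from 386.3 to 424.9 CPM, so that the groups overlapped. Its log2 fold change was 0.031 with a 95% interval from -0.035 to 0.098 (edgeR adjusted p = 0.566). The interval bounds the difference between these libraries and does not show equal levels.

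ERBB2 (ENSG00000141736, chromosome 17, 39687914 to 39730426, plus strand), a partner receptor with no known ligand of its own, stood at 107 ± 3.82 CPM in control and 113 ± 5.60 CPM in SOX11 libraries. The highest values were in SOX11 replicates 1 and 2 (118.3 and 116.3 CPM) and the groups overlapped. The log2 fold change was 0.076 (95% interval -0.0040 to 0.157, edgeR adjusted p = 0.184). Exons of ERBB2 overlap MIEN1 and PGAP3 on the opposite strand, and the strand setting of the counting is not given in the sources used here. MIEN1 (25.8 and 26.9 CPM) and PGAP3 (11.5 and 12.9 CPM) were not called.

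ERBB3 (ENSG00000065361, chromosome 12, 56076799 to 56103505, plus strand), a neuregulin receptor with an impaired kinase, was the least abundant of the 3 receptors. It stood at 29.4 ± 2.02 CPM in control and 27.3 ± 1.21 CPM in SOX11 libraries, with overlapping groups (log2 fold change -0.10, 95% interval -0.22 to 0.017, edgeR adjusted p = 0.239). ERBB4 had at most 1 count in a control and at most 3 counts in a SOX11 library, too few for a comparison.

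**Figure D2:**
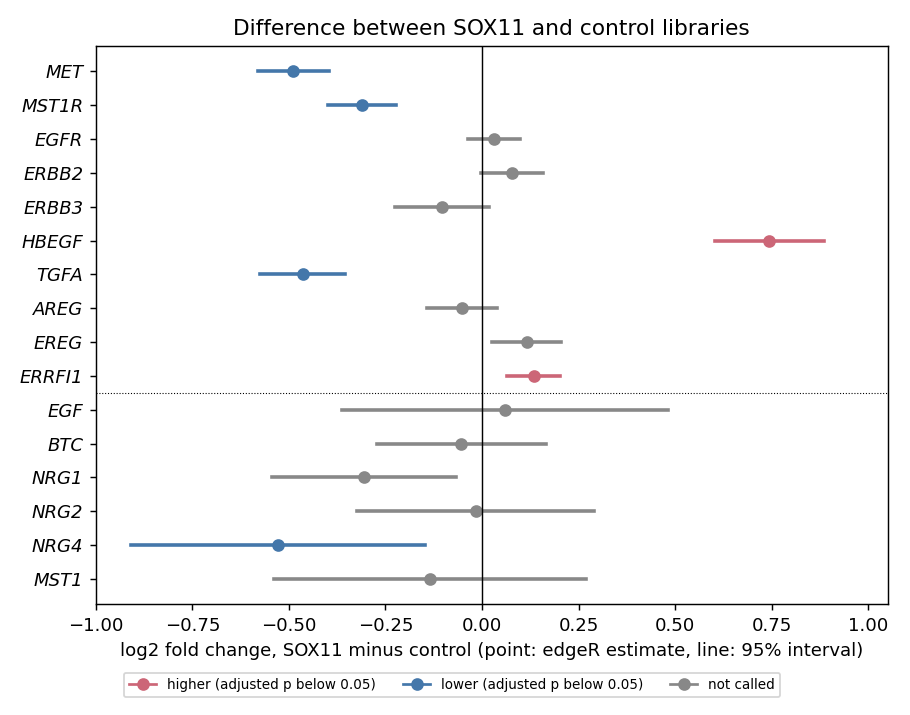
Log2 fold change of SOX11 minus control (x axis) with its 95% interval from edgeR for the 10 genes and, under the dotted line, for the 6 other tested receptor and ligand genes of the families. The intervals of MET, MST1R and TGFA lie under 0 and that of HBEGF, from 0.60 to 0.88, lies farthest above 0.

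Of the 4 EGFR ligands, 1 rose, 1 fell and 2 were not called. HBEGF (ENSG00000113070, chromosome 5, 140332843 to 140346631, minus strand) encodes heparin-binding EGF, which binds EGFR and ERBB4. Its level was 22.9, 21.5, 19.0 and 24.0 CPM in control replicates 1 to 4 and 40.0, 32.6, 38.1 and 35.8 CPM in SOX11 replicates 1 to 4. Every SOX11 library lay above every control library, with the smallest distance between control replicate 4 and SOX11 replicate 2. The mean rose from 21.8 ± 2.13 to 36.6 ± 3.19 CPM, or 1.67-fold (log2 fold change 0.74 ± 0.069 SE, edgeR adjusted p = 3.77e-09). HBEGF had rank 289 by size of increase among all tested genes.

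TGFA (ENSG00000163235, chromosome 2, 70447280 to 70554193, minus strand) encodes transforming growth factor alpha. It stood at 52.9, 52.8, 47.7 and 50.4 CPM in control and at 38.4, 32.8, 38.6 and 38.2 CPM in SOX11 libraries. SOX11 replicate 2 was lower than the other 3 SOX11 libraries, which lay close together, and the groups did not overlap. The mean fell from 50.9 ± 2.44 to 37.0 ± 2.80 CPM, which is 1.38-fold lower (log2 fold change -0.46 ± 0.054 SE, edgeR adjusted p = 1.32e-07). Without SOX11 replicate 2 the log2 fold change was -0.41.

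AREG (ENSG00000109321, chromosome 4, 74445134 to 74455009, plus strand) encodes amphiregulin. Its level was 51.0 to 53.9 CPM in control and 49.0 to 50.8 CPM in SOX11 libraries. The groups did not overlap, but the distance was small and the gene was not called (log2 fold change -0.052, 95% interval -0.14 to 0.038, edgeR adjusted p = 0.462). EREG (ENSG00000124882, chromosome 4, 74365143 to 74388751, plus strand), which lies close to AREG, encodes epiregulin. It stood at 74.2, 70.2, 69.4 and 74.1 CPM in control and at 73.1, 75.7, 80.6 and 82.6 CPM in SOX11 libraries, where replicate 1 lay within the control range. Its log2 fold change was 0.12 ± 0.044 SE and missed the threshold (edgeR adjusted p = 0.0588). EREG was called higher with upper quartile scaling (adjusted p = 0.0447) and without control replicate 1 (0.0479), SOX11 replicate 1 (0.0254) or SOX11 replicate 2 (0.0417).

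The ligand transcripts can be set side by side per length, as CPM per kb of annotated exon. Their sum was 61.6 ± 1.77 CPM per kb in control and 63.7 ± 1.59 CPM per kb in SOX11 libraries (SD, n = 4), and the ranges of the sum overlapped (59.0 to 62.8 and 61.5 to 64.9). HBEGF made up 11.7% ± 0.917 of that sum in control and 19.0% ± 1.44 in SOX11 libraries. TGFA made up 16.6% ± 0.377 in control and 11.7% ± 0.645 in SOX11 libraries. The order of these ligands was thus exchanged: in every control library TGFA exceeded HBEGF per length, and in every SOX11 library HBEGF exceeded TGFA. AREG was the most abundant ligand in both groups, at 51.2% ± 1.30 and 47.8% ± 1.58 of the sum, followed by EREG at 20.4% ± 0.594 and 21.4% ± 0.922. These shares restate the levels of the 4 genes and carry no test of their own.

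**Figure D3:**
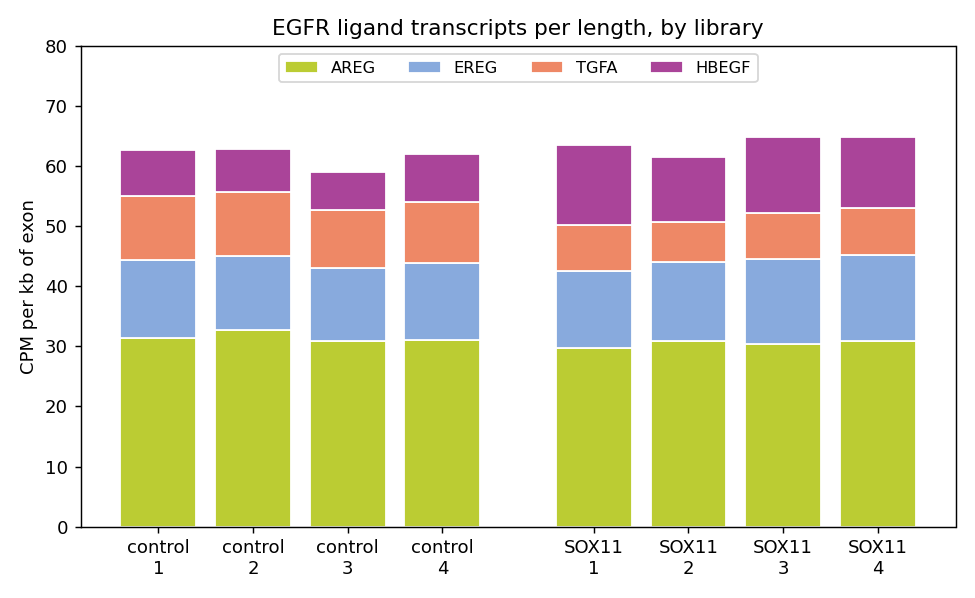
CPM per kb of exon (y axis) of the 4 EGFR ligands, stacked, in each library (x axis). The total lies between 59.0 and 64.9 in the 8 libraries, while the HBEGF segment is larger and the TGFA segment smaller in the SOX11 libraries.

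ERRFI1 (ENSG00000116285, chromosome 1, 8004404 to 8026308, minus strand) encodes MIG6, a cytoplasmic protein that binds activated ERBB kinases and inhibits them. Its level was 192.1, 181.0, 184.7 and 180.6 CPM in control and 200.1, 211.5, 198.3 and 199.9 CPM in SOX11 libraries. The groups did not overlap, and SOX11 replicate 2 was the highest library. The mean rose from 185 ± 5.31 to 202 ± 6.06 CPM, a small change of 1.10-fold (log2 fold change 0.13 ± 0.033 SE, edgeR adjusted p = 0.00406).

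Compared between genes per length, ERRFI1 was the most abundant of the 10 genes in control, at 44.1 ± 1.27 CPM per kb. EGFR (31.7 ± 0.752 CPM per kb) and AREG (31.5 ± 0.826) came next and overlapped each other. MET at 24.9 ± 1.16, MST1R at 16.6 ± 0.590 and EREG at 12.6 ± 0.445 CPM per kb followed as separate steps. ERBB2 (10.4 ± 0.370) and TGFA (10.3 ± 0.491) overlapped, and HBEGF (7.24 ± 0.707) and ERBB3 (3.25 ± 0.223) were the lowest. In SOX11 libraries the ranges of EREG (13.6 ± 0.767), MST1R (13.4 ± 0.697), HBEGF (12.1 ± 1.06) and ERBB2 (10.9 ± 0.542 CPM per kb) formed a run in which each neighbour overlapped the next. MET was at 0.784 ± 0.0262 of the EGFR level per length in control and at 0.547 ± 0.0243 in SOX11 libraries. The place of ERBB2 depends on the length taken: with its longest coding transcript it was at 22.3 CPM per kb in control and 23.5 in SOX11 libraries, above MST1R in control and above MET (18.8) in SOX11 libraries.

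By the root mean square difference of log2 CPM over the 8 libraries, each gene centred on its own mean, the genes most like MET among 12072 protein-coding genes were ELOVL2 (0.050), CAMK2N1 (0.056) and IL31RA (0.059). ELOVL2, a fatty acid elongase gene, stood at 67.0 ± 3.83 and 46.5 ± 1.75 CPM in control and SOX11 libraries. Those most like HBEGF were TMEM132A (0.058), SPTB (0.078) and MRC2 (0.086). TMEM132A stood at 98.1 ± 5.38 and 167 ± 13.6 CPM. These distances describe 8 libraries in which the group difference is shared by every such gene.

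Other ligands and receptors of these families were low. Of 10 listed genes 6 were tested, of which 0 were higher and 1 lower, with a median log2 fold change of -0.094. That is 16.7% called, against 20.0% of all tested genes. The call was NRG4, a neuregulin gene that overlaps FBXO22 on the opposite strand, at 2.84 ± 0.673 and 1.95 ± 0.235 CPM (log2 fold change -0.53, edgeR adjusted p = 0.0428). The call ended with DESeq2 (adjusted p = 0.104), with limma-voom (0.0674) and without control replicate 1 or 3 or SOX11 replicate 1, 2 or 4 (0.0682 to 0.158). The neuregulin gene NRG1 was at 7.36 and 5.93 CPM (edgeR adjusted p = 0.0621), and BTC, EGF and NRG2 lay between 2.22 and 6.38 CPM in control. NRG3, like HGF, was not among the genes counted.

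Of the 14 tested genes that process the ligands, 5 were lower and 1 higher, with a median of -0.067. Together these are 42.9% of the tested genes of the list, against 20.0% of all tested genes. The lower genes were the metalloproteases ADAM9 (-0.18, from 850 to 749 CPM) and ADAM15 (-0.17), the urokinase gene PLAU (-0.15), the tetraspanin gene CD9 (-0.18) and RHBDF1 (-0.21), an inactive rhomboid that guides ADAM17. ADAM17 itself, the main protease that sheds TGFA and HBEGF, stood at 94.6 and 99.3 CPM and was not called (adjusted p = 0.292), nor was ADAM10 (adjusted p = 0.835). The higher gene was ST14, which encodes matriptase, at 5.14 and 6.48 CPM (edgeR adjusted p = 0.0489). SOX11 replicate 1 was its highest library, and without that library ST14 was not called (log2 fold change 0.24, adjusted p = 0.217). Its call also ended without any of the other libraries but SOX11 replicate 4 (0.0748 or more), with DESeq2 (0.120) and with limma-voom (0.0725). For RHBDF1 the call ended when control replicate 4 was left out (adjusted p = 0.0702).

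Adaptor and proximal signalling genes had 6 of 29 tested members higher and 1 lower, with a median of 0.011. The share called was 24.1%, near the 20.0% of all tested genes. GAB2, a docking protein for PI3K and SHP2, rose from 6.65 ± 0.516 to 10.6 ± 0.848 CPM, a log2 fold change of 0.68 ± 0.098 (SE, edgeR adjusted p = 5.85e-06). Smaller increases were called for the phospholipase gene PLCG1 (0.20), the RAS exchange factor gene SOS2 (0.19), the adaptor genes NCK2 (0.23) and SHC1 (0.086) and the MET docking protein gene GAB1 (0.25). MAP2K1, which encodes MEK1, fell from 91.4 to 77.0 CPM (-0.25, edgeR adjusted p = 1.45e-05). The GAB1 call ended without control replicate 2, 3 or 4 or SOX11 replicate 1, 2 or 4 (adjusted p = 0.0531 to 0.187), with DESeq2 (0.0821) and with limma-voom (0.0578). That of SHC1 ended without control replicate 1, 2 or 4 or SOX11 replicate 1, 3 or 4 (0.0725 to 0.123) and with no filter (0.118). HRAS, BRAF, MAPK3 and AKT1 were not called.

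Among genes for receptor turnover and inhibition, 3 of 24 were higher and 4 lower, with a median of -0.0022. So 29.2% were called, beside 20.0% of all tested genes. CBLB, a ubiquitin ligase that marks active receptors for degradation, rose from 7.98 ± 0.698 to 12.8 ± 1.29 CPM, a log2 fold change of 0.68 ± 0.094 (SE, edgeR adjusted p = 2.87e-06). Its relative CBL, the main ligase of EGFR and MET, was at 168 and 164 CPM and was not called (adjusted p = 0.476). PTPRJ, a receptor phosphatase with EGFR and MET among its substrates, rose from 50.1 to 65.0 CPM (0.38, adjusted p = 6.48e-07), and DUSP3 rose by 0.13. The endosomal sorting gene STAM (-0.18), UBASH3B (-0.16), the late endosome gene RAB7A (-0.12) and the phosphatase gene PTPN1 (-0.10) fell. The PTPN1 call ended without control replicate 2, 3 or 4 or SOX11 replicate 1 or 3 (adjusted p = 0.0516 to 0.112), and the DUSP3 call without control replicate 2 or SOX11 replicate 4 (0.0962 and 0.112). LRIG1, a transmembrane inhibitor of ERBB receptors, was at 11.5 and 11.1 CPM (adjusted p = 0.824).

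Genes that ERK signalling is known to induce had 5 of 23 tested members lower and 1 higher, with a median of -0.036. Calls made up 26.1% of these tested members and 20.0% of all tested genes. IL11 fell from 22.8 to 14.9 CPM (log2 fold change -0.62, edgeR adjusted p = 0.00146) and the MAP kinase phosphatase gene DUSP4 from 8.22 to 5.98 CPM (-0.47, adjusted p = 0.00257). SPRED1 (-0.18), ETV5 (-0.15) and IER3 (-0.22) fell as well, and the cytokine gene LIF rose by 0.16. For ETV5 the call ended when control replicate 2 was left out (adjusted p = 0.0859). The IER3 call ended without control replicate 1, 2 or 4 or SOX11 replicate 4 (0.0651 to 0.0784), and that of LIF without control replicate 3 or 4 or SOX11 replicate 1, 3 or 4 (0.0808 to 0.120). FOSL1, which encodes an AP-1 subunit, was at 165 to 196 CPM in control and 118 to 156 CPM in SOX11 libraries, without overlap, and missed the threshold (log2 fold change -0.37, edgeR adjusted p = 0.0540). DUSP6 (8.48 and 8.89 CPM), SPRY2 (20.8 and 20.3 CPM), CCND1 (331 and 341 CPM) and MYC (74.3 and 76.4 CPM) were not called.

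**Figure D4:**
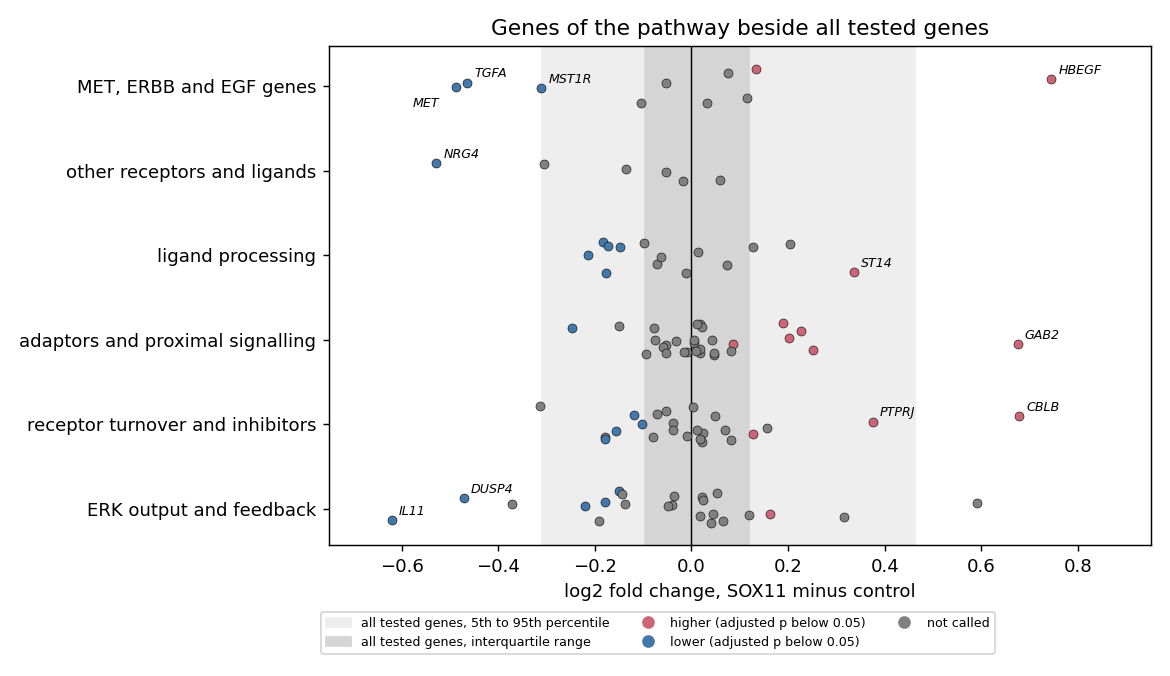
Log2 fold change of SOX11 minus control (x axis) for each tested gene of the 6 lists (y axis, points spread vertically for sight), coloured by call, over the 5th to 95th percentile range (light) and the interquartile range (dark) of all 15665 tested genes. MET, TGFA and HBEGF lie outside the wider range of -0.31 to 0.46 and MST1R lies just outside it, as do the called genes GAB2, CBLB, NRG4, IL11 and DUSP4 and the uncalled genes CBLC, FOSL1 and VGF.

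Over the 5 lists beside the 10 genes, 27 of 96 tested genes were called, 11 higher and 16 lower, or 28.1% against 20.0% of all tested genes. Without SOX11 replicate 1 these counts were 8 higher and 15 lower of 97 tested genes, or 23.7%, while 16.4% of all genes tested in that fit were called. These lists too were chosen with earlier results of these data known, so the shares are not a test of the lists.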

How the data were processed

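RNA of 8 DU145 libraries, 4 control and 4 SOX11, was sequenced from poly(A) libraries (TruSeq Stranded mRNA, per the labels' protocols). The authors deposited raw counts per Ensembl gene, with no normalization. Cutadapt, FastQC and STAR 2.7.0e and the build GRCh38 are named in the submitters' processing notes. The counter, its strand setting and the gene models are not given in the sources used. Symbols matched 32053 of 32066 identifiers, and positions and lengths come from GENCODE 29.

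Genes were filtered with filterByExpr (minimum count 10), scaled by TMM and tested in edgeR 4.0.16 (R 4.3.3) by the quasi-likelihood method, with group as the term. P-values were adjusted over 15665 genes by the Benjamini-Hochberg method. CPM uses the TMM-scaled library sizes. Alternatives were DESeq2 1.42.0, limma-voom (limma 3.58.1), RLE and upper quartile scaling, no filter, a filter of 1 CPM in 4 libraries, a replicate block and each library left out. Counts were simulated for SOX11 against control with 200 genes changed per simulation (15467 or more genes tested). In these, 55.2% of 1.25-fold, 77% of 1.5-fold and 91.9% of 2-fold changes were recovered. A far smaller share of genes was changed there than was called in the data, so the rates may differ in the data. Within each group, no pair of libraries was a repeat of the same counts (chi-square per degree of freedom 1.39 or more). This does not show whether the replicates were separate cultures.

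The members and lists were chosen with earlier results of these data known. The text names SOX11, the 10 genes, from each list the called genes of smallest adjusted p (up to 5), and the 3 genes most like MET and HBEGF. Called genes beyond these, the uncalled genes named beside them and the counts of KLK3 and the genes beside it were chosen after their values were seen. Some items are not reported here.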

Additional observations from a re-analysis of the deposited data

Results flagged for a closer look

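In 10 of 94 groups of 4 libraries examined, 1 library stood farther from the others than Dixon's 95% critical value allows. Chance flags about 1 in 20 such groups when the genes are chosen without sight of their counts. That rate does not apply to the flags of KLK3, TMPRSS2 and HPN given below. The groups also include SOX11 and TMPRSS2 in control, with 0 counts in each library, where no library stands apart. The total is therefore not compared with the chance rate. TGFA was at 32.8 CPM in SOX11 replicate 2 against 38.2 to 38.6 CPM in the other SOX11 libraries, and ERRFI1 was at 211 CPM in the same library against 198 to 200 CPM. CD9 was at 99.6 CPM in control replicate 1, MAP2K1 at 80.5 CPM in SOX11 replicate 3, RAB7A at 185 CPM in SOX11 replicate 4 and SPTB at 15.8 CPM in control replicate 3.

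The remaining cases are genes of luminal prostate cells, which were examined after their counts were seen. In SOX11 replicate 1, KLK3 was at 5.86 CPM, TMPRSS2 at 1.48 and HPN at 1.97 CPM, against 0 to 0.122 CPM in the other SOX11 libraries. KLK3 was at 0.277 CPM in control replicate 4, which is 4 counts.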

How the results depend on the processing

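The calls of MET, TGFA, MST1R, HBEGF and ERRFI1 held in each of the 15 alternatives run, and EGFR, ERBB2, ERBB3 and AREG were called in none of them. Over these alternatives the log2 fold change ran from -0.52 to -0.45 for MET, -0.49 to -0.41 for TGFA, -0.34 to -0.29 for MST1R, 0.69 to 0.80 for HBEGF and 0.11 to 0.15 for ERRFI1. EREG was called in 4 of the 15. Over all genes, leaving out 1 library gave 1245 to 1554 higher and 1221 to 1503 lower calls, and DESeq2 gave 1165 and 1242. With the replicate number as a block there were 1506 higher and 1393 lower calls, the same 5 of the 10 genes were called, and the calls of IER3 (adjusted p = 0.0507) and ST14 (0.0572) ended. The labels do not say that a number marks a shared batch. Same-numbered libraries had correlations of deviations of 0.063, -0.068, -0.041 and 0.11, and not every library correlated best with its own number. The second gene length was chosen after the data were seen and bears only on levels compared between genes. Genes near 2 CPM, such as NRG4 and MST1, rest on 21 to 52 counts a library, which limits the size of change that can be seen. The read depth and the 4 libraries a group left 95% intervals about 0.13 to 0.28 log2 units wide for the 10 genes.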
